A study of Mus musculus with 8 samples.

Results

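The teashirt zinc finger factors *Tshz1*, *Tshz2* and *Tshz3* were followed in retinas of *dmbo* and wild-type (WT) mice at postnatal day 15 (P15). All probe sets that the authors' table names as *Tshz1*, *Tshz2* or *Tshz3* were taken, which gave 1 probe set for each of the 3 genes, 3 of 28350 in all. The *dmbo* mice were homozygous for a nonsense mutation of *Hmx1*, a homeobox transcription factor of the developing eye and ear. They had been crossed back to C57BL/6J so that they lost the *Rd1* mutation, and the strain was labelled C57BL/6J in both groups. The WT mice were C57BL/6J and homozygous for the normal allele. RNA of whole retinas was hybridized to Affymetrix Mouse Gene 1.0 ST arrays, with 4 arrays in each group, and values are log2 signals after RMA (background correction, quantile normalization and summary of the probes). In whole retina, fewer cells of a type and less RNA per cell cannot be told apart.

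Teashirt proteins are transcription factors with widely spaced zinc fingers and, in vertebrates, a homeodomain. They are named after *teashirt* of Drosophila, which patterns the trunk of the fly and takes part in the gene network of its eye. They mostly repress transcription, and they bind the corepressor CtBP. In the mouse, *Tshz1* is needed for the soft palate and the middle ear, and *Tshz3* for the smooth muscle of the ureter and for the neurons that drive breathing. *Tshz2* is less studied. The study traced it, through a database of retinal cell types, to glycinergic amacrine cells, which are inhibitory interneurons of the inner retina.

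The arrays correlated with each other by 0.989 to 0.998, and their median log2 signal lay between 8.19 and 8.28. *Sag*, the arrestin of photoreceptors, had a mean log2 signal of 13.06 in *dmbo* and 13.05 in WT retinas, so a defining marker of the labelled tissue was high in both groups. The *dmbo* replicates 1 and 2 carried both *Xist* and Y-linked transcripts, although each RNA was isolated from 1 retina by the labels' protocol. WT replicate 2 and *dmbo* replicates 3 and 4 carried *Xist* without the Y-linked transcript *Eif2s3y*, and WT replicates 1, 3 and 4 the reverse. Lens transcripts also differed. The mean log2 signal of 13 crystallin genes was 8.42 to 12.51 in *dmbo* and 7.45 to 9.12 in WT retinas. *Hmx1* itself had a log2 fold change of -0.0021 (limma, adjusted p = 1.00), and as a nonsense mutation need not remove the transcript, its probe set does not check the labels.

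The sequences before the annotated starts of *Tshz2*, which rose in *dmbo* retinas, and of *Tshz3*, which did not, are shown because the study looked for binding sites of HMX1 in promoters. They are the RefSeq windows of build GRCm38.p6 from 250 bases before to 50 bases after the start, both on the plus strand, at chr2:169632259-169632558 and chr7:36697868-36698167. The capitals mark each CAAG, the core of the HMX1 motif, on either strand (CAAG or CTTG).
Tshz2: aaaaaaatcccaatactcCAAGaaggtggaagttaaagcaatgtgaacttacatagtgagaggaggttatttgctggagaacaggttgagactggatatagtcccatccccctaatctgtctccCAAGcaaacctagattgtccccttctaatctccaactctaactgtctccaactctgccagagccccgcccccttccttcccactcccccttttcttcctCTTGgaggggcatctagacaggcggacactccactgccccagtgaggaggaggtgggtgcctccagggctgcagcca
Tshz3: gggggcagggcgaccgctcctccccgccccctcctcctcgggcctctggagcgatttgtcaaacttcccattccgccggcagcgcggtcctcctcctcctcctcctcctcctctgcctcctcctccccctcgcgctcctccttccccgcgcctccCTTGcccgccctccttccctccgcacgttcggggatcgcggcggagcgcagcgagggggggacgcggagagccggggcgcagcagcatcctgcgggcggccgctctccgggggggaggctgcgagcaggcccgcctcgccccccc
The full motif CAAGTG, or CACTTG on the other strand, was in neither window. The study, in its own longer window, counted 2 of these motifs in the promoter of *Tshz2*. It was in 13.6% of the 32851 RefSeq windows of this length, and 1.2% held it at least 2 times. The NKX2-5 motif TNAAGTG, which overlaps CAAGTG, was in neither window and in 11.5% of all windows. The E-box CANNTG, of which CAAGTG is one form, was in neither and in 72.3% of all. The core CAAG was found at 3 positions in *Tshz2* and 1 in *Tshz3*, where 90.6% of all windows held at least 1 and the median was 2. Its positions in *Tshz2* were -232, -126 and -27 from the start, and in *Tshz3* -95. The window of *Tshz3* was richer in G and C, at 76.0%, than that of *Tshz2*, at 52.0%, beside a median of 52.7% over all windows. The study's own window reached 200 bases past the start, and the RefSeq gene *Tshz2* spans 440243 bases against 279924 in the authors' table, so the start shown need not be that of the measured transcript. The absence of a motif holds for these letters in these windows alone.

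*Tshz2* was the teashirt gene that rose in *dmbo* retinas, by 1.48-fold (95% confidence interval 1.33 to 1.64). Its probe set, 10478928, holds 35 probes and is placed on chromosome 2 from 169458671 to 169738594 by the authors' annotation, given without a genome build. The log2 signal was 9.13, 8.97, 9.17 and 8.92 in the *dmbo* retinas, in the order of their replicate numbers. In the WT retinas it was 8.52, 8.51, 8.53 and 8.38 in the same order. Every *dmbo* retina lay above every WT retina, and the gap of 0.40 between the lowest *dmbo* and the highest WT value was wider than the range within *dmbo* (0.25) or within WT (0.15).

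The mean of the *dmbo* retinas was 9.05 ± 0.12 (SD, n = 4) and that of the WT retinas 8.49 ± 0.07 (SD, n = 4). The log2 fold change was thus 0.56, with a standard error of 0.07 and an adjusted p of 0.00681 from limma. The study had picked *Tshz2* on these arrays, so its test here is no independent evidence. Among the 28350 probe sets it ranked 35 by p. It ranked 22 by size of the rise among those called higher in *dmbo* at an adjusted p under 0.1 with a fold of 1.2 or more. Such calls were rare, at 0.638% of all probe sets in either direction and 0.3% for a rise. The exact permutation test over the 8 arrays gave a two-sided p of 0.0286, the smallest that 70 assignments allow. The WT signal of *Tshz2* was moderate. On the WT arrays 52.8% to 56.5% of the probe sets lay below it, and on the *dmbo* arrays 64.3% to 68.6% lay below the *Tshz2* signal, but whether the transcript was detected in WT retinas was not tested.

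**Figure D1:**
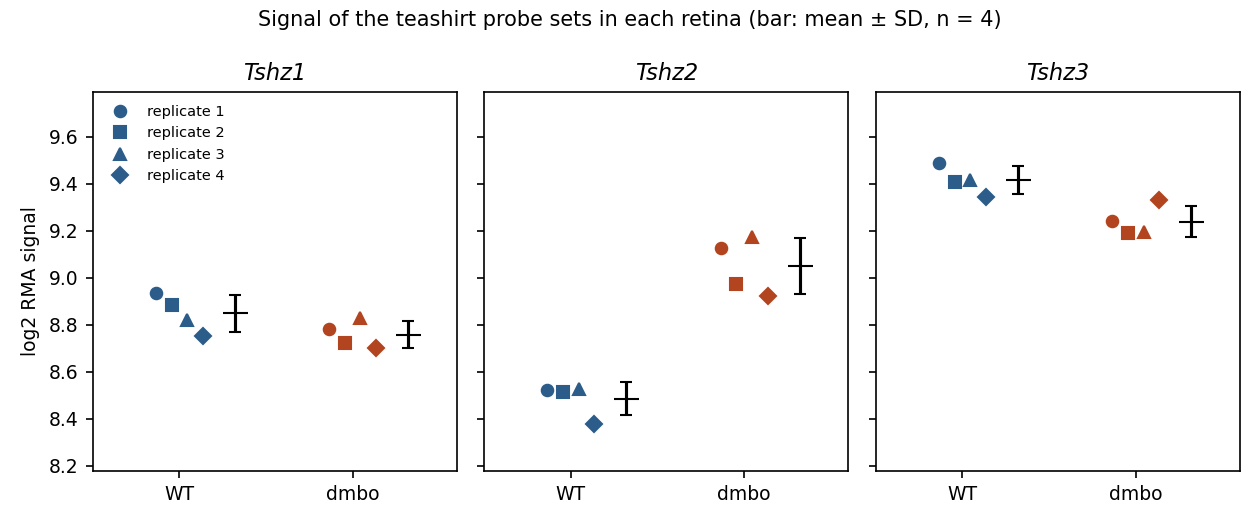
Log2 RMA signal (y axis) of *Tshz1*, *Tshz2* and *Tshz3* in each of the 4 WT (blue) and 4 *dmbo* (red) retinas, with a marker shape for each replicate number and the mean ± SD as a black bar. For *Tshz2* the *dmbo* retinas lie at 8.92 to 9.17 and the WT retinas at 8.38 to 8.53, while the groups of *Tshz1* overlap and those of *Tshz3* are apart by 0.01.

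The rise of *Tshz2* stayed past the threshold when any single array was left out, with log2 fold changes of 0.52 to 0.61 and adjusted p-values of 0.00665 to 0.0328 from limma. It did not pass without both *dmbo* replicates 1 and 2, the arrays with mixed sex transcripts. The fold change was then the same, 0.56, at an adjusted p of 0.102 from limma on 6 arrays. With *Xist* entered as a female share it was 0.58 (adjusted p = 0.0775), and with the crystallin mean as a covariate 0.70 (adjusted p = 0.0145). Both covariates are partly confounded with genotype.

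Among the 3 arrays with *Xist* and without Y-linked transcripts, *Tshz2* had a log2 signal of 9.17 and 8.92 in the *dmbo* retinas and of 8.51 in the WT retina. With a single WT retina among them, these values were not tested. The crystallin mean was highest in *dmbo* replicate 4 of its group (12.51) and in WT replicate 4 of its group (9.12), and these were the arrays with the lowest *Tshz2* signal in each group. *Dmbo* replicate 3, whose crystallin mean of 8.42 lay within the WT range, had the highest *Tshz2* signal of all. Leaving out *dmbo* replicates 1 and 4, where the crystallin mean was highest, was added once the values were known, and the log2 fold change was then 0.59 (limma, adjusted p = 0.0381).

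**Figure D2:**
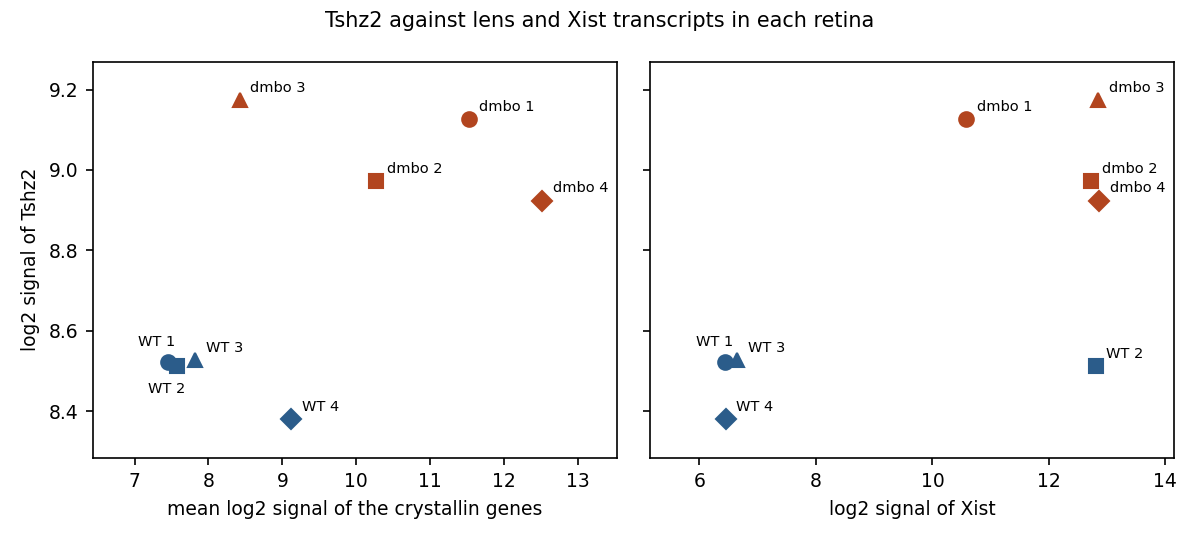
Log2 signal of *Tshz2* (y axis) in each of the 8 retinas against the mean log2 signal of 13 crystallin genes (left) and the log2 signal of *Xist* (right), with *dmbo* in red and WT in blue. *Dmbo* replicate 3 has a crystallin mean of 8.42, below that of WT replicate 4 at 9.12, and the highest *Tshz2* signal, and WT replicate 2 carries *Xist* at 12.80 with *Tshz2* at 8.51.

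*Tshz3* was lower in *dmbo* retinas by a small amount that did not pass the test. Its probe set, 10552245, holds 27 probes on chromosome 7, from 37483137 to 37558476 in the authors' table. The log2 signal was 9.24, 9.19, 9.19 and 9.33 in the *dmbo* retinas and 9.49, 9.41, 9.42 and 9.34 in the WT retinas, again by replicate number. All WT retinas lay above all *dmbo* retinas, but *dmbo* replicate 4 and WT replicate 4 were 0.01 apart. Groups that do not overlap were found for 5.39% of all probe sets, and for *Tshz2* and *Tshz3* here. The log2 fold change was -0.18, with a 95% confidence interval of -0.29 to -0.06, a standard error of 0.05, an unadjusted p of 0.00605 and an adjusted p of 0.289 from limma. On the linear scale this is 1.13-fold, under the minimum of 1.2-fold. The adjusted p lay between 0.145 and 0.618 when any single array was left out. The exact permutation test gave a two-sided p of 0.0286, again the smallest possible. With array weights, which favour arrays close to their group, the adjusted p from limma was 0.0577 at a log2 fold change of -0.20, still under the minimum fold.

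*Tshz1* gave no difference that passed the test. Its probe set, 10460057, holds 27 probes on the minus strand of chromosome 18, from 84181933 to 84255782. The log2 signal was 8.78, 8.72, 8.83 and 8.70 in *dmbo* and 8.93, 8.89, 8.82 and 8.75 in WT replicates 1 to 4. The groups overlapped, as *dmbo* replicate 3 lay above WT replicates 3 and 4. The log2 fold change was -0.09, with a standard error of 0.05 and an adjusted p of 0.813 from limma. Its 95% confidence interval, from -0.21 to 0.03, lies within the 0.263 on the log2 scale that equals 1.2-fold. The exact permutation test gave a two-sided p of 0.143. With the crystallin mean as a covariate the log2 fold change was 0.01, so even its sign was not settled.

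**Figure D3:**
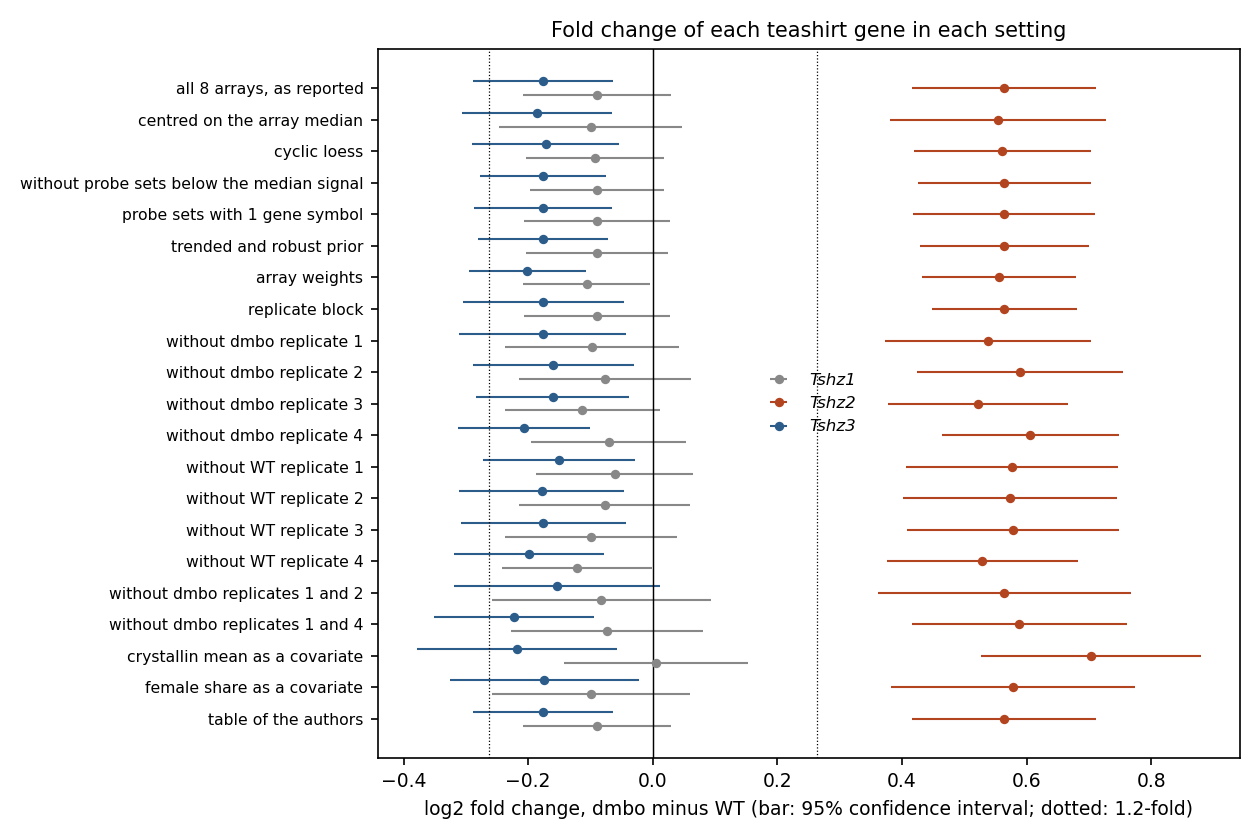
Log2 fold change, *dmbo* minus WT (x axis), of *Tshz1* (grey), *Tshz2* (red) and *Tshz3* (blue) with all 8 arrays and in each of 20 other settings (y axis), with 95% confidence intervals as bars and 1.2-fold as dotted lines. *Tshz2* lies between 0.52 and 0.70 in the other settings, *Tshz3* between -0.22 and -0.15 and *Tshz1* between -0.12 and 0.01.

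*Tshz2* shifted against both relatives, which is no independent evidence, as the study had picked *Tshz2* for its change on these arrays. Within each array the signal of one gene was subtracted from that of another, and the differences were compared between groups for the 3 pairs of genes. *Tshz2* minus *Tshz1* was 0.34, 0.25, 0.35 and 0.22 in the *dmbo* retinas and -0.41, -0.37, -0.29 and -0.37 in the WT retinas, by replicate number. The groups were apart by 0.65 on the log2 scale (exact permutation test, two-sided p = 0.0286, 0.0429 adjusted over the 3 pairs). *Tshz2* minus *Tshz3* was -0.12, -0.22, -0.02 and -0.41 in *dmbo* and -0.97, -0.90, -0.89 and -0.96 in WT replicates 1 to 4. This pair shifted most, by 0.74 (exact permutation test, two-sided p = 0.0286, adjusted 0.0429), and it varied more within *dmbo* (SD 0.17, n = 4) than within WT retinas (SD 0.04, n = 4). Without *dmbo* replicates 1 and 2 both shifts had an adjusted exact p of 0.1 and did not pass the threshold of 0.1, where the smallest p for 6 arrays is 0.0667. The sign of such a difference within an array is not a ratio of transcript levels, since probes differ between genes.

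*Tshz1* and *Tshz3* were not shown to respond differently. *Tshz1* minus *Tshz3* shifted by 0.09, from -0.57 ± 0.03 (SD, n = 4) in WT to -0.48 ± 0.11 (SD, n = 4) in *dmbo* retinas (exact permutation test, two-sided p = 0.2, adjusted 0.2). Without *dmbo* replicate 4 the shift was 0.14 with an adjusted p of 0.0286 from the exact permutation test, the smallest that 35 assignments allow. Without any other single array the adjusted p from this test was 0.2 to 0.371.

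The neighbors of *Tshz2* did not move with it. Of the 15 other probe sets within 1000000 bases of its span, none was called, 10 had a positive log2 fold change and none had an unadjusted p under 0.05 from limma. Over all probe sets 0.638% were called, and a window of 15 would hold no call at that share. Their log2 fold changes lay between -0.16 and 0.13 with a median of 0.02. The nearest measured neighbors were *1700101G07Rik*, 49.9 kb upstream (log2 fold change -0.01, limma, adjusted p = 0.997), and *AY702102*, 48.9 kb downstream (-0.05, limma, adjusted p = 0.984). Next came *Zfp217*, a zinc finger repressor 197 kb downstream, which had the highest log2 fold change of the window at 0.13 (limma, adjusted p = 0.807). No other probe set lay inside the 279924 bases of *Tshz2* in the authors' table, from which these distances were measured. The RefSeq gene spans 440243 bases, so a nearest neighbor may lie inside it.

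No neighbor of the other members was called, beside 0.638% of all probe sets. Around *Tshz3*, which lies in a stretch with few genes, 5 probe sets were measured within 1000000 bases. The lowest unadjusted p was 0.02, for *Dpy19l3* (log2 fold change 0.13; limma, adjusted p = 0.482). The closest were *Rpl17*, 579 kb upstream (log2 fold change 0.02), and *Zfp536*, a zinc finger repressor 545 kb downstream (-0.0049). Around *Tshz1* 13 were measured, and the lowest unadjusted p was 0.022, for *Fbxo15* (log2 fold change 0.14; limma, adjusted p = 0.501). *Zadh2*, 1.77 kb upstream of *Tshz1*, had a log2 fold change of 0.02 (limma, adjusted p = 0.985).

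**Figure D4:**
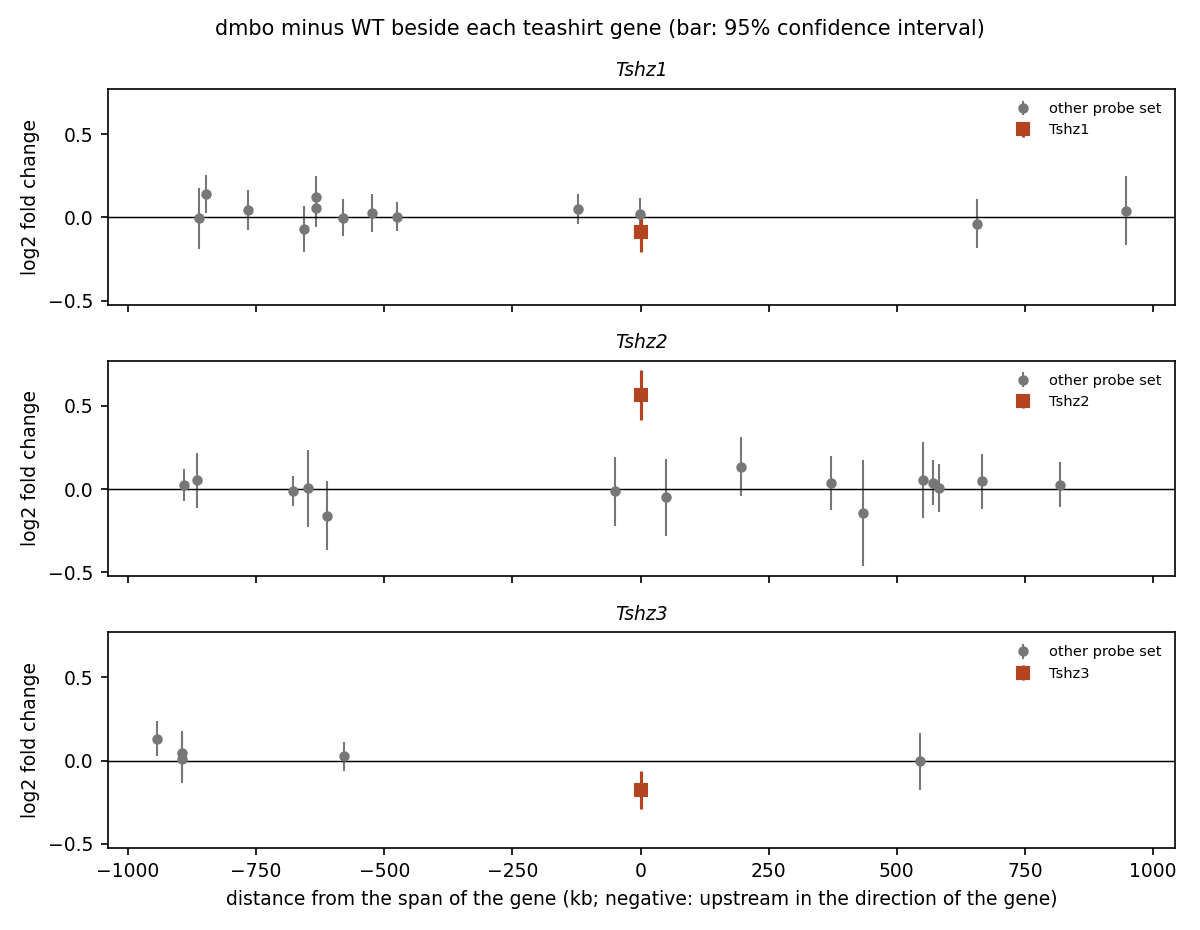
Log2 fold change, *dmbo* minus WT (y axis), of *Tshz1*, *Tshz2* and *Tshz3* (red squares at 0) and of the other probe sets within 1000000 bases (grey), against their distance in kb from the span of the gene (x axis), with 95% confidence intervals as bars. *Tshz2* stands at 0.56, while its 15 neighbors lie between -0.16 and 0.13.

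The other genes of the zinc finger class of homeobox genes gave no call. This class holds, besides the teashirt genes, *Zfhx2* to *Zfhx4*, large factors of neuronal differentiation, the repressors *Zeb1* and *Zeb2*, the chromatin proteins *Adnp* and *Adnp2*, *Zhx1* to *Zhx3* and *Homez*. Of these 11 genes, all measured, 0 rose and 0 fell at an adjusted p under 0.1 from limma, and 0 had an unadjusted p under 0.05. Over all 21696 genes, each by its brightest probe set, 0.788% passed, and a list of 11 genes would hold no call at that share. Their log2 fold changes lay between -0.10 (*Zfhx2*) and 0.08 (*Zhx2*), with a median of -0.00397 beside 0.00492 over all genes. The confidence intervals of all 11 genes lay below that of *Tshz2*.

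Known partners of teashirt proteins gave no call either. Of 9 genes listed, 0 rose and 0 fell, beside 0.788% of all genes that passed, with a median log2 fold change of -0.03. *Ctbp1*, the corepressor bound by teashirt proteins, had a log2 signal of 10.66, 10.67, 10.68 and 10.58 in *dmbo* and 10.72, 10.73, 10.82 and 10.72 in WT replicates 1 to 4. These groups did not overlap, as for 5.39% of all probe sets, but the log2 fold change of -0.10 had an adjusted p of 0.665 from limma. *Ctbp2*, its relative, which also gives rise to the main protein of the synaptic ribbon, had one of -0.03 (limma, adjusted p = 0.982). *Ctnnb1*, the β-catenin of Wnt signaling, had one of 0.08 (adjusted p = 0.686), and its groups did not overlap either. *Myocd*, the myocardin whose activity *Tshz3* restrains in smooth muscle, had one of -0.03 (adjusted p = 0.975), and *Sox9*, another partner of *Tshz3*, one of -0.01 (adjusted p = 0.995).

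The eye field and retinal determination genes, the vertebrate relatives of the network in which *teashirt* acts in the fly, gave no call. Of 22 genes 0 rose and 0 fell, beside 0.788% of all genes that passed, with a median log2 fold change of -0.01. *Sox2*, a factor of retinal progenitors, Müller glia and some amacrine cells, had the largest value. Its log2 signal was 9.16, 9.12, 9.38 and 9.20 in *dmbo* and 8.94, 9.04, 8.93 and 8.67 in WT replicates 1 to 4, a log2 fold change of 0.32 (limma, adjusted p = 0.239). *Pax6*, the central regulator of eye development and a marker of amacrine cells, had a log2 fold change of 0.07 at an adjusted p of 0.764. With the crystallin mean as a covariate *Sox2* and *Dach2* passed as higher, in a fit where 3.65% of all genes passed.

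Of 14 genes of glycinergic amacrine cells, the cells in which the study placed *Tshz2*, 1 fell and 0 rose. Of all genes, 0.788% passed in either direction. In all, 13 of the 14 had a negative log2 fold change, with a median of -0.10 beside 0.00492 over all genes. Negative values were found for 10194 of all 21696 genes and for 16 of 24 genes of other amacrine cells. The gene that fell was *Slc6a9*, the glycine transporter, which the study had chosen on these same arrays together with *Tshz2*, so that it is not independent evidence. Its log2 signal was 11.67 to 11.71 in *dmbo* and 12.02 to 12.10 in WT retinas (log2 fold change -0.38, limma, adjusted p = 0.00344). *Slc32a1*, the transporter that loads glycine and GABA into vesicles, had a log2 fold change of -0.16 at an adjusted p of 0.557 and *Ebf3*, a transcription factor of these cells, one of -0.23 (adjusted p = 0.374). The mean log2 signal over the list was 9.62 to 9.73 in *dmbo* and 9.75 to 9.83 in WT retinas. Without *dmbo* replicates 1 and 2 *Slc6a9* had a log2 fold change of -0.38 at an adjusted p of 0.109 from limma. No gene of the list passed in that fit, beside 0.203% of all genes, and the median was -0.12. With the crystallin mean as a covariate *Slc6a9* passed, beside 3.65% of all genes, and the median was -0.02. The part of the number of amacrine cells in the change of *Tshz2* was not tested.

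Of 24 genes of other amacrine cells, 0 rose and 0 fell, beside 0.788% of all genes that passed, with a median of -0.05. After cyclic loess *Th*, the enzyme of dopamine synthesis, passed as higher, and *Npy*, a neuropeptide, and *Tfap2b*, a transcription factor of amacrine cells, passed as lower, in a fit where 1.19% of all genes passed. *Tac1*, which encodes the precursor of substance P, passed as higher without *dmbo* replicates 1 and 4 and with the crystallin mean as a covariate, where 0.493% and 3.65% of all genes passed.

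Of 10 genes of Müller glia, the radial support cells of the retina, 3 rose and 0 fell, beside 0.788% of all genes that passed in either direction. The median log2 fold change was 0.19 (0.185). They were *Kcnj10*, the potassium channel, *Aqp4*, the water channel, and *Slc1a3*, the glutamate transporter. *Kcnj10* had a log2 signal of 9.17, 9.10, 9.18 and 9.01 in *dmbo* and 8.81, 8.87, 8.85 and 8.78 in WT replicates 1 to 4 (log2 fold change 0.29, limma, adjusted p = 0.051). *Aqp4* had a log2 fold change of 0.30 at an adjusted p of 0.0727 and *Slc1a3* one of 0.26 (0.2615, adjusted p = 0.0545). The value of *Slc1a3* lay just under the 0.263 that equals 1.2-fold, a minimum not required in the lists. *Rlbp1*, the retinaldehyde binding protein of the same cells, had one of -0.11 (adjusted p = 0.61) and *Glul*, glutamine synthetase, one of 0.08. The mean over the list was 11.05 to 11.16 in *dmbo* and 10.93 to 10.96 in WT retinas. Without *dmbo* replicates 1 and 2, and with the female share as a covariate, none of the 10 passed, with medians of 0.22 and 0.20. Of all genes, only 0.203% and 0.157% passed in these fits. The median was 0.09 without *dmbo* replicates 1 and 4, where *Aqp4* and *Kcnj10* passed, beside 0.493% of all genes. It was 0.04 with the crystallin mean as a covariate. The same 3 genes passed there with log2 fold changes of 0.33 to 0.43, beside 3.65% of all genes. Whether Müller glia contribute to the signal of *Tshz2* was not tested.

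**Figure D5:**
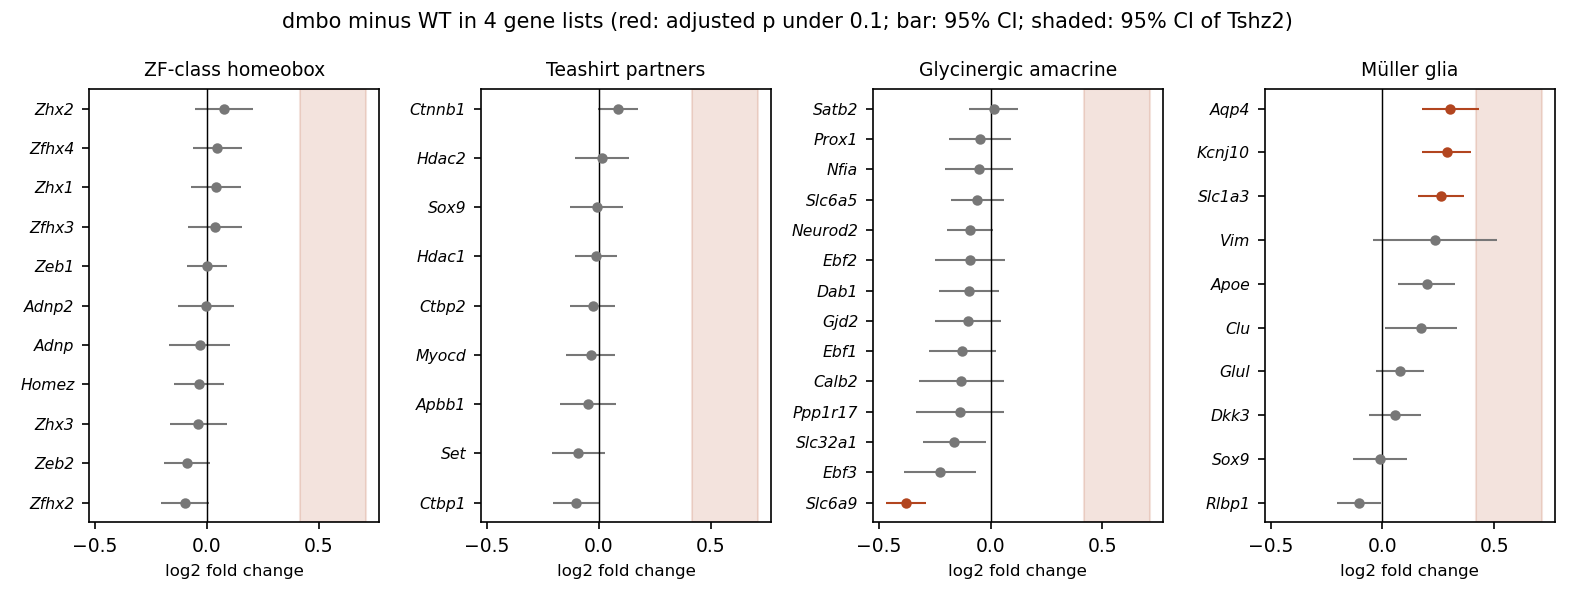
Log2 fold change, *dmbo* minus WT (x axis), with its 95% confidence interval for the genes (y axis) of 4 lists, in red where the adjusted p was under 0.1, with the confidence interval of *Tshz2* (0.42 to 0.71) shaded. The 11 other zinc finger homeobox genes lie between -0.10 and 0.08, *Slc6a9* lies at -0.38 and *Aqp4*, *Kcnj10* and *Slc1a3* at 0.26 to 0.30.

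Lists of other retinal cells gave no call. Of 13 genes of retinal ganglion cells, 10 of rods and 12 of bipolar cells, 0 rose and 0 fell, with medians of 0.000517, -0.02 and -0.03. Over all genes 0.788% passed, and lists this short would hold no call at that share.

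Transcripts of neighboring tissues were given beside *Tshz2* because they can be carried into a dissected retina. All 17 measured lens genes had a positive log2 fold change (median 2.03) and 0 passed. Their mean log2 signal was 8.20 to 12.12 in *dmbo* and 7.46 to 8.78 in WT retinas. All 12 genes of muscle and sclera had a negative one (median -0.55), and 0 passed. Of 8 genes of ciliary body and iris 7 were positive (median 0.12) and 0 passed. The 12 genes of pigment epithelium and choroid had a median of -0.04, and 0 passed. Over all genes 0.788% passed, and lists this short would hold no gene that passed at that share. Apart from the fits with the crystallin mean, the part of these tissues in the signal of *Tshz2* was not tested.

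The gene with the pattern most like that of *Tshz2* over the 8 arrays was *Kcnj10* (Pearson's r = 0.988). It was followed by *Lrrc51* (r = 0.985), *1700003M02Rik* (0.981), *Cdk17*, a cyclin-dependent kinase (0.978), and *Nr4a3*, an orphan nuclear receptor (0.977). These correlations were ranked over 25003 probe sets with 1 gene symbol and hold the difference between the groups as well as the spread within them. With the group means subtracted, the r was 0.896 for *Kcnj10*, 0.842 for *Lrrc51*, 0.74 for *1700003M02Rik*, 0.886 for *Cdk17* and 0.907 for *Nr4a3*. The genes were picked by a measure that holds the spread within groups, so these values are no independent evidence. *Lrrc51* was higher in *dmbo* retinas by 0.66 (limma, adjusted p = 0.0077), and *1700003M02Rik* by 0.33 (adjusted p = 0.0164), whereas *Cdk17* had a log2 fold change of 0.13 at an adjusted p of 0.357 and *Nr4a3* one of 0.26 (adjusted p = 0.102).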

How the data were processed

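Retinas of 4 *dmbo* and 4 WT mice at P15 were measured on Affymetrix arrays. The deposited log2 values had been computed by the authors with RMA from the scanned arrays, and their statistical analyses were run in R 2.12.1. Quantile normalization gives all arrays nearly the same distribution, so changes are relative. The authors' table adds gene names, positions and other annotation, such as the number of probes, without a genome build. Its columns with the authors' own fold changes, p-values and means were not used. The values of both deposited tables were identical (largest difference 0), and the one that names samples was used.

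All 28350 probe sets were fitted in limma (version 3.58.1, under R 4.3.3) for the difference of *dmbo* from WT, with p-values adjusted over all probe sets after Benjamini and Hochberg. As in the study's methods, a call needed an adjusted p under 0.1 with a fold of 1.2 or more. Single values and differences between members were tested with an exact permutation test over arrays. In lists, the brightest probe set stood for each gene, which passed at an adjusted p under 0.1. The script was tested on simulated data. Precision is limited by there being 8 arrays. The labels do not say whether any replicates share a litter.

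The members and lists were chosen with earlier results of these data known. The genes named were the 3 members, genes of the lists that passed, neighbors that were called or nearest, and the 5 genes most correlated with *Tshz2*. Further genes of the lists were named after their values were seen, and 1 marker gene is not reported here. Older gene symbols were matched through RefSeq synonyms, and promoter windows came from RefSeq (GRCm38.p6), where 2 of the 3 members were used. The alternatives were other normalizations, filters, priors and weights, the replicate number as a block, arrays left out, and covariates.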

Additional observations from a re-analysis of the deposited data

Results flagged for a closer look

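Among 18 groups of 4 arrays (the members, their differences, *Hmx1*, the crystallin mean and *Xist*), 3 held an array that stood far from the others by Dixon's test. The test flags about 1 group in 20 by chance. The differences were computed from the members, so the groups are not independent and the count cannot be judged by that rate. *Tshz2* was lowest in WT replicate 4, at a log2 signal of 8.38, which lay 0.133 below the other WT retinas. Without this array the log2 fold change of *Tshz2* was 0.53 (limma, adjusted p = 0.026). WT replicate 4 also had the highest crystallin mean of its group. *Xist* had a log2 signal of 10.58 in *dmbo* replicate 1, below the other *dmbo* retinas, and of 12.80 in WT replicate 2, above the other WT retinas, which carried *Eif2s3y* instead.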

How the results depend on the processing

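Of the 20 alternatives, the call of *Tshz2* ended in 1, without *dmbo* replicates 1 and 2 (log2 fold change 0.56, limma, adjusted p = 0.102). *Tshz1* and *Tshz3* were called in none. The count of all called probe sets, 181, was 344 with array weights, 63 without *dmbo* replicates 1 and 2, 841 with the crystallin covariate, 45 with the female share as a covariate, 41 at an adjusted p under 0.01, and 87 to 199 without single arrays. Same-numbered arrays deviated together only for replicate 4 (correlations of -0.0291, -0.0161, 0.0319 and 0.425), so the numbers were not taken as pairs. With the replicate block 144 probe sets were called, *Tshz2* kept its call (0.56, limma, adjusted p = 0.0105), and differences paired by number gave 0.65 for *Tshz2* minus *Tshz1* and 0.74 for *Tshz2* minus *Tshz3* at an exact p of 0.125 each, the smallest that 4 pairs allow. Without *dmbo* replicates 1 and 2 these differences were 0.65 and 0.72 (exact p = 0.0667 each, the smallest for 6 arrays, adjusted 0.1). Without single arrays they were 0.64 to 0.68 and 0.68 to 0.81. *Tshz1* minus *Tshz3* was 0.05 (0.0475) to 0.14 without single arrays, and 0.15 without *dmbo* replicates 1 and 4 (adjusted exact p = 0.0667), which was added once the values were known. Windows of 500000 and 2000000 bases also held no called neighbor, beside 0.638% of all probe sets, and the former held no probe set beside *Tshz3*. A mean over several probe sets was not run, since each gene has 1. The files give no detection call, so how far any member lies above background is unknown.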

Other observations

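With the group means subtracted, *Tshz1* and *Tshz2* varied together over the 8 arrays (Pearson's r = 0.823), while *Tshz2* and *Tshz3* did not (r = -0.0842) and *Tshz1* and *Tshz3* had an r of 0.247. Over the same arrays without this step the values were -0.384, -0.828 and 0.615. The points share 2 groups of 4 arrays and their RNA quality, and no test was made. By the subtracted measure the genes most like *Tshz2* were *Osbpl9* (r = 0.989), *Rusc2* (0.987), *Ube3b* (0.986), *Cpsf4* (0.981) and *Bysl* (0.981), none of which passed the test between groups (adjusted p of 0.342 to 0.986 from limma). None of them was among the genes most like *Tshz2* before the subtraction.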
